A study of Mus musculus with 8 samples.

Results

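The genes described here are 31 genes of the smooth muscle contractile apparatus and its control, out of 52636 gene identifiers counted in mouse colon. They were chosen by symbol, as a list of genes known for their part in smooth muscle. Earlier results of these data were known when the list was made. Counts of members set beside the share of all genes are therefore descriptive. Each symbol was matched to its identifier in the GENCODE M21 annotation of GRCm38 (mm10). All 31 were found, and all 31 passed the filter on low counts that left 16107 genes for testing. By role they comprise 6 contractile filament genes, 6 thin filament regulators, 4 genes of kinase and phosphatase control, 9 of intermediate filaments and attachment, 1 of transcriptional control, and 5 receptor, channel and calcium store genes.

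Smooth muscle shortens when calcium, bound to calmodulin, activates myosin light chain kinase, which phosphorylates the regulatory light chain of myosin and lets it pull on actin. Myosin phosphatase reverses this, and calponin, caldesmon and related proteins on the thin filament tune it. In the colon the circular and longitudinal layers of the muscularis externa drive propulsion under cholinergic nerves, and smaller amounts of smooth muscle lie in the muscularis mucosae and in vessel walls. Many of these genes are targets of serum response factor (SRF) with its coactivator myocardin.

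All mice were germ-free C57BL/6 wild-type females, 6 weeks old, kept in gnotobiotic isolators, and whole colon RNA was sequenced at day 30. The 3 groups were controls (n = 3 libraries), mice gavaged with C. albicans SC5314 (n = 3) and mice gavaged with C. tropicalis MYA-3404 (n = 2), each fungus at a dose with a log10 of 8 colony-forming units. The labels call the first group control and name no mock gavage. Nothing in the labels ties each library to its own mouse, so every p-value here rests on the variation among libraries, some of which may be technical. They name no isolator, cage or collection session, so these cannot be told apart from the groups. The libraries held 16195376 to 19761098 counts. Levels are CPM (counts scaled to a library of fixed size) with TMM-adjusted library sizes, and values are listed in replicate order within a group. Summed colon epithelium markers (9 genes, with Krt8 the most abundant) ran from 13191 to 18544 CPM. Single genes of that list differed more: Car1 stood at 2231 and 2255 CPM with C. tropicalis, 1602 CPM in control 3 and 180 to 432 CPM in the other 5 libraries, and Krt20 ran from 273 CPM in control 3 to 1190 CPM in C. albicans 2.

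The smooth muscle genes took a very unequal share of the 8 libraries. They held 2.31%, 1.67% and 1.22% of all counts in control 1, 2 and 3, 1.56%, 4.17% and 2.42% in C. albicans 1, 2 and 3, and 0.672% and 0.890% in C. tropicalis 1 and 2. The exact 95% binomial interval of the highest share was 4.16% to 4.18% and that of the lowest 0.668% to 0.675%. These intervals cover counting error only. Group means were 1.73% ± 0.548 (SD, n = 3), 2.72% ± 1.33 (SD, n = 3) and 0.781% ± 0.154 (SD, n = 2). Both C. tropicalis libraries thus lay below the other 6, while the C. albicans libraries overlapped the controls and C. albicans 2 stood above all others. In bulk tissue, fewer muscle cells and less RNA per muscle cell cannot be told apart. Des took 13.9% of the counts of the 31 genes over all libraries, Actg2 12.7%, Acta2 10.8%, Myh11 10.7% and Flna 7.79%. The 6 members that non-muscle cells also make in quantity (Flna, Tpm1, Cald1, Csrp1, Myl9 and Pdlim7) are part of this sum. Without them the shares were 1.68%, 1.23% and 0.837% in the controls and 1.13%, 3.13% and 1.77% with C. albicans. Those in C. tropicalis 1 and 2 were 0.448% and 0.593%.

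**Figure D1:**
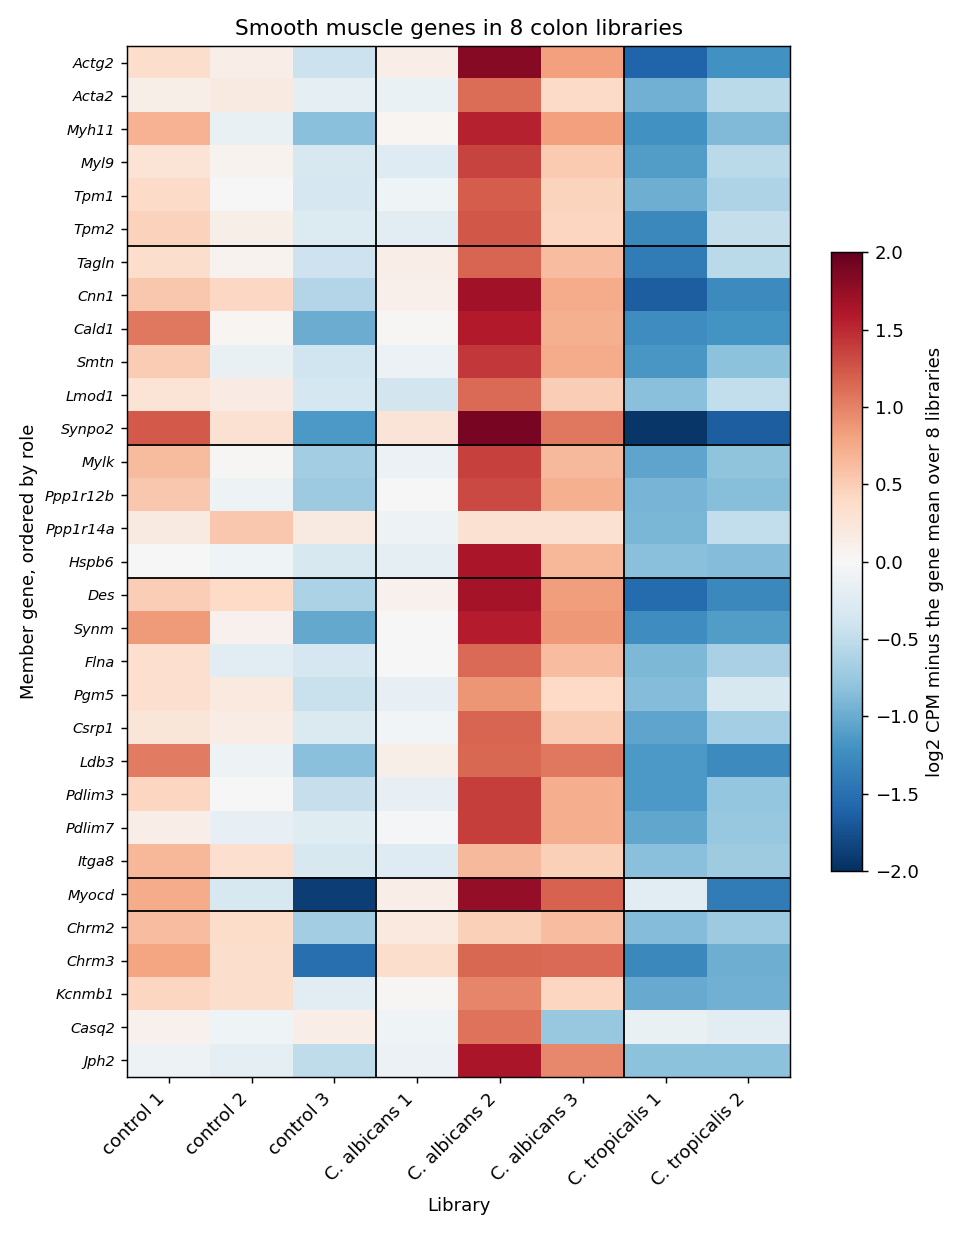
Each row is 1 of the 31 smooth muscle genes, ordered by role with lines between roles, each column is a library, and colour is log2 CPM minus the mean of that gene over the 8 libraries. The C. albicans 2 column is the highest for 28 genes and both C. tropicalis columns lie below the other 6 for 27.

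The genes moved together from library to library. For 28 of the 31, C. albicans 2 had the highest level of all libraries, as it did for 18.8% of all tested genes. The exceptions were Chrm2 (highest in C. albicans 3), Itga8 (control 1) and Ppp1r14a (control 2). A C. tropicalis library was the lowest for 28 members, against 26.5% of all genes, and both C. tropicalis libraries lay below the other 6 for 27, against 10.7%. Within groups the order of libraries was also shared: control 1 over control 2 over control 3 in 28 members (22.1% of all genes), C. albicans 2 over 3 over 1 in 29 (25.2%), and C. tropicalis 2 over 1 in 26 (53.2%). The highest library exceeded the lowest by a median of 5.48-fold over the members, from 2.72-fold for Ppp1r14a to 14.2-fold for Synpo2, where the median over all genes was 1.86-fold. All 31 exceeded 2-fold, as did 45.4% of all genes. Part of this spread lay among replicates. Control 1 exceeded control 3 by a median of 1.71-fold over the members, and C. albicans 2 exceeded C. albicans 1 by a median of 2.72-fold, while the same ratios over all genes had medians of 0.997 and 0.997. Against the mean log2 level of all 31, the closest followers were Pdlim3 and Mylk (SD of the difference over 8 libraries 0.095 and 0.098), and the loosest were Casq2 (0.75), Myocd (0.72), Synpo2 (0.65) and Ppp1r14a (0.54).

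The comparison of C. albicans with control asks whether colonization by this species went with a different level of the contractile genes. Of the 31 genes, 30 had a log2 fold change above 0 (48.2% of all genes did) and none passed an adjusted p of 0.05 in edgeR, where 0.0373% of all genes were called higher and 0.00621% lower. The median over the members was 0.66, or 1.58-fold, and over all genes -0.02. At an unadjusted p under 0.05, 5 members were higher (9.13% of all genes): Jph2, Pdlim7, Hspb6, Actg2 and Flna. Every one of the 31 genes had overlapping groups, where 9.82% of all genes lay higher and 9.57% lower without overlap. Leaving out C. albicans 2 took the median to 0.29 and leaving out control 1 took it to 0.999. DESeq2 called 1 member higher, Jph2 (2.43% of all genes). Without C. albicans 1, edgeR called 3, Hspb6, Pdlim7 and Jph2 (1.41% of all genes).

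With C. tropicalis, all 31 genes had log2 fold changes below 0 against control, as did 52.1% of all genes, with a median of -0.98 (all genes -0.02). None passed the adjusted threshold in edgeR, which called 0.0248% of all genes higher and 0.00621% lower. At an unadjusted p under 0.05, 18 members were lower (8.05% of all genes), with the smallest p for Ppp1r14a, Kcnmb1, Cnn1, Des, Synpo2 and Actg2. Both C. tropicalis libraries lay below all 3 controls for 28 members (16.5% of all genes), the exceptions being Pgm5, Myocd and Chrm3. DESeq2 called 5 members lower, Actg2, Cnn1, Ppp1r14a, Des and Kcnmb1 (1.35% of all genes). Without control 3, edgeR called 1, Chrm2 (0.758% of all genes).

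Between the 2 species the member median lay further from 0 than in either comparison with control. All 31 genes were below 0 in C. tropicalis against C. albicans (46.3% of all genes), with a median log2 fold change of -1.67, a level 3.19-fold lower, where the median over all genes was 0.04. For 30 members, all but Casq2, both C. tropicalis libraries lay below all 3 C. albicans libraries (22.4% of all genes). None passed an adjusted p of 0.05 in edgeR, which called 0 of all 16107 genes in this comparison. An unadjusted p under 0.05 was met by 30 members (14.4% of all genes), and an adjusted p under 0.1, a threshold added after the data were seen, by 26 (7.07% of all genes). The number called changed with the choice of test and libraries. DESeq2 called 28 lower, all but Itga8, Myocd and Casq2 (8.56% of all genes), and edgeR with no filter on low counts called 27 (3.48%) and with only these 2 groups in the fit 14 (4.21%). limma-voom called 0 members in all 3 comparisons. Leaving out 1 library gave 26 without C. albicans 1 (6.56% of all genes), 18 without control 1 (4.44%), 19 without control 3 (4.58%) and 0 without any other. The 3 comparisons share their libraries in pairs, so their values for a gene are not independent of each other.

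A further fit added a smooth muscle score from 12 genes outside the list as a covariate, which asks what differs between groups at an equal score. No member was called, and the member medians were -0.10 for C. albicans against control, 0.017 for C. tropicalis against control and 0.060 for C. tropicalis against C. albicans. The score itself followed the members, at 0.91 in C. albicans 2 and -0.70 and -0.68 in C. tropicalis 1 and 2, on a log2 scale centred over the libraries. Both C. tropicalis scores lay below those of all other libraries, the next being -0.38 in control 3. An equal score is therefore an extrapolation for that group.

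**Figure D2:**
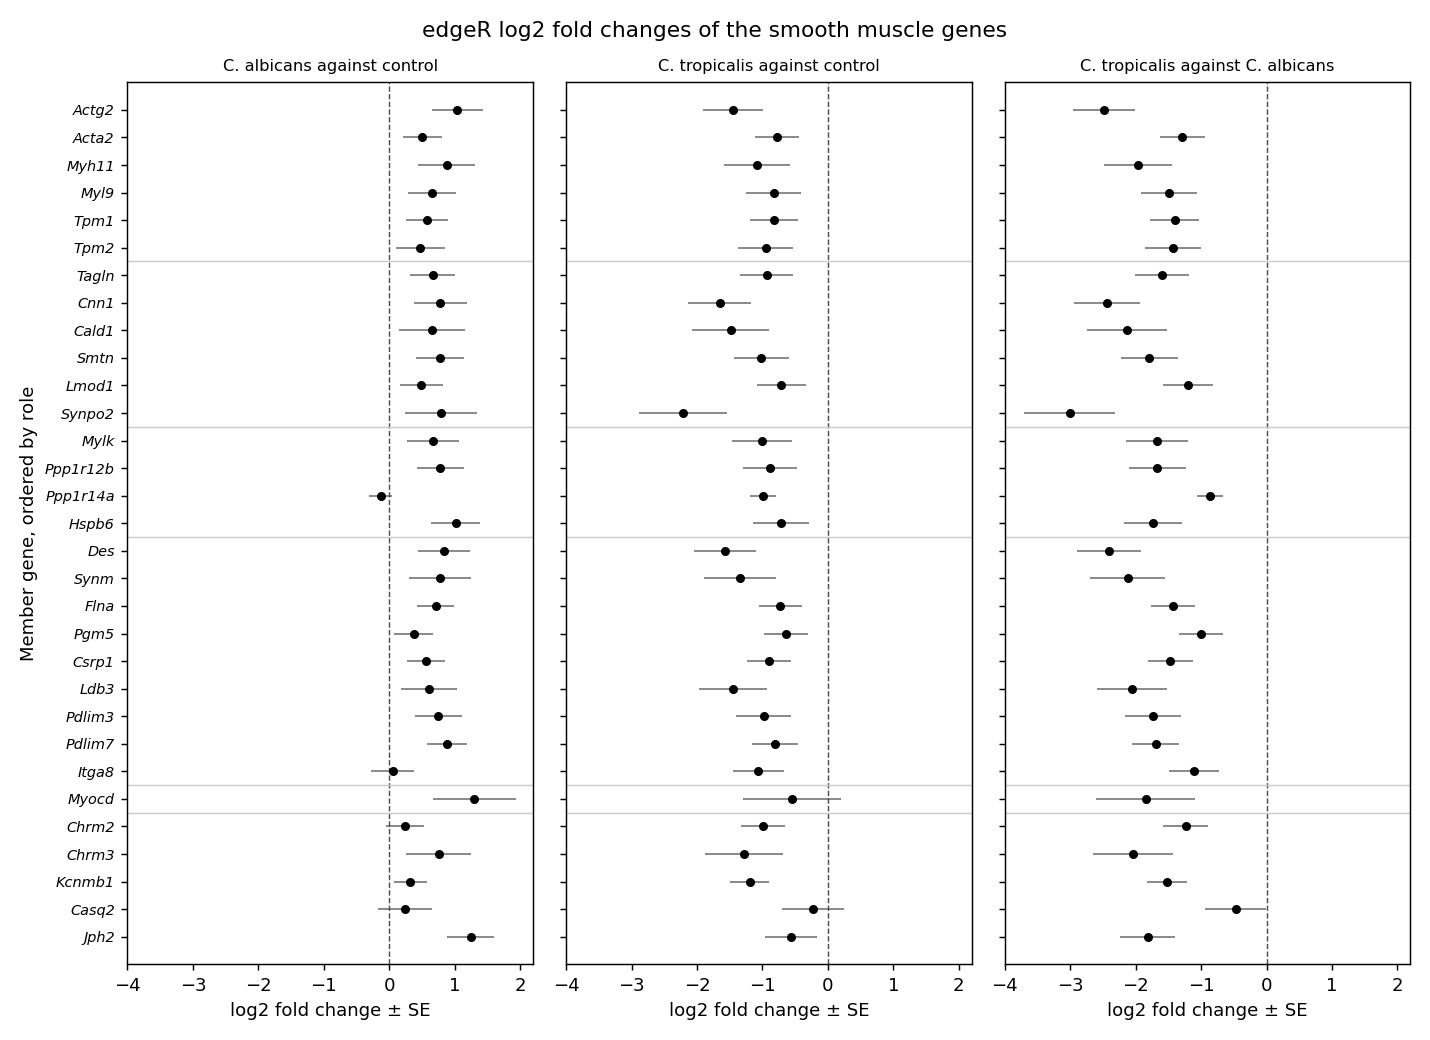
Points are edgeR log2 fold changes of the 31 smooth muscle genes and lines are standard errors, in 3 panels for the 3 comparisons, with a dashed line at 0 and grey lines between roles. All points lie left of 0 in both C. tropicalis panels, and all but Ppp1r14a lie right of 0 for C. albicans against control.

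Among the contractile filament genes, Actg2 (enteric smooth muscle gamma actin, ENSMUSG00000059430, chromosome 6, 83512905 to 83536265, minus strand) was the most abundant member per length, with 1521 CPM per kilobase of exon over the 8 libraries. It stood at 2348, 2025 and 1371 CPM in the controls, 2029, 6498 and 3268 CPM with C. albicans, and 607 and 796 CPM with C. tropicalis. C. albicans 2 and 3 lay above every control, C. albicans 1 lay among them, and both C. tropicalis libraries lay below all others. The log2 fold change was 1.04 ± 0.39 for C. albicans against control (SE, adjusted p = 0.278), -1.45 ± 0.45 for C. tropicalis against control (adjusted p = 0.242) and -2.49 ± 0.48 between the species (adjusted p = 0.0646). Acta2 (vascular and visceral alpha actin, ENSMUSG00000035783, chromosome 19, 34241090 to 34255590, minus strand) followed per length at 927 CPM per kilobase, close to Myl9 (regulatory myosin light chain) at 957. Acta2 stood at 2031, 2122 and 1651 CPM in the controls, 1705, 4081 and 2451 CPM with C. albicans, and 962 and 1286 CPM with C. tropicalis. Its libraries kept the order of Actg2 within both Candida groups over a narrower range, and its log2 fold change between the species was -1.29 ± 0.34 (adjusted p = 0.0789). Myh11, the smooth muscle myosin heavy chain, stood at 2684, 1483 and 922 CPM in the controls, 1695, 4769 and 2901 CPM with C. albicans, and 713 and 892 CPM with C. tropicalis. The controls alone spanned almost the whole gap between its C. tropicalis and C. albicans 3 levels. Its log2 fold change was 0.88 ± 0.43, -1.08 ± 0.50 and -1.96 ± 0.52 in the 3 comparisons (adjusted p = 0.356, 0.340 and 0.0785). Myl9 and the tropomyosins Tpm1 and Tpm2, which lie along the actin filament, had log2 fold changes of 0.48 to 0.66 with C. albicans and of -0.95 to -0.82 with C. tropicalis against control.

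Promoters of the members were searched for the CArG box, the site to which SRF binds, because the genes moved together and many are known SRF targets. RefSeq's promoter table (GRCm38.p6, from 250 bases before to 50 after each start) held 27 of the 31. The other 4 were Actg2, Myh11, Tagln and Myocd. The box has 10 letters, with CC and GG at its ends and, when exact, only A or T between them. A box counted as 1 letter off has 1 C or G between these ends, and boxes with a changed end were not counted. The box reads the same on both strands, and no other motif was searched. An exact box lay in the window of 2 of the 27 genes, or 7.41%, against 1.81% of all 27025 RefSeq genes, and a box exact or with 1 letter off in 7 of 27, or 25.9%, against 11.3%. These are Acta2, Myl9, Jph2, Hspb6, Synm, Pdlim3 and Ldb3. The 250 bases before the start of the 2 genes with an exact box and of Acta2, the actin with 2 boxes that are 1 letter off, are shown 5′ to 3′ on the strand of the gene, with each box in capitals. They lie at chr19:34255374-34255623 (minus strand) for Acta2, chr2:156775214-156775463 (plus strand) for Myl9 and chr14:34588682-34588931 (minus strand) for Ldb3.
Acta2: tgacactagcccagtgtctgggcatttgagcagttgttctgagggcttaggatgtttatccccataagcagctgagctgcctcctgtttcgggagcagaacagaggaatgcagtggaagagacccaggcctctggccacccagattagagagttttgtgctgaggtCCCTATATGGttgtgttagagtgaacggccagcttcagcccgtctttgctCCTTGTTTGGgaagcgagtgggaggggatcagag
Myl9: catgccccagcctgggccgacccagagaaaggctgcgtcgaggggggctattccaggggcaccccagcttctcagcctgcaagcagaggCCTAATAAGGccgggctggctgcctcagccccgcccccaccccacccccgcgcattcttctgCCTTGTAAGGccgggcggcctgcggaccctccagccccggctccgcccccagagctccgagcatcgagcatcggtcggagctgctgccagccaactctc
Ldb3: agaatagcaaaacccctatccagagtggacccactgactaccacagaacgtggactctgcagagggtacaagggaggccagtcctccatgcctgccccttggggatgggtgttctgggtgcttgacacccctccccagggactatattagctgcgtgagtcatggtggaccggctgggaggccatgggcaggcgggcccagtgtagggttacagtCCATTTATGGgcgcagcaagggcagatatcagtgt
The exact box of Myl9 begins 161 bases before the start and that of Ldb3 35 bases before the start used here. RefSeq lists another start of Ldb3, and the same box begins 109 bases before that one. The 2 boxes of Acta2 begin 84 and 34 bases before its start. A match is a stretch of letters and not a measured binding site, and its absence says only that these letters are not in this window.

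The highest library exceeded the lowest by a median of 6.55-fold for the thin filament regulators, from 3.91-fold for Lmod1. Cnn1 (calponin, which restrains actin-activated myosin) stood at 1675, 1534 and 769 CPM in the controls, 1237, 3680 and 1917 CPM with C. albicans, and 366 and 477 CPM with C. tropicalis. The C. tropicalis libraries lay below control 3, the lowest control. The log2 fold change was -1.65 ± 0.48 against control (adjusted p = 0.220) and -2.43 ± 0.50 against C. albicans (adjusted p = 0.0646). Synpo2 (synaptopodin 2 or myopodin, an actin-bundling protein of the Z-disc and dense bodies, ENSMUSG00000050315, chromosome 3, 123076519 to 123236149, minus strand) had the widest range of all 31. It stood at 333, 175 and 64.3 CPM in the controls, 169, 528 and 296 CPM with C. albicans, and 37.1 and 45.3 CPM with C. tropicalis. Control 3 lay nearer to the C. tropicalis libraries than to the other controls. Its log2 fold changes were the lowest among the members, -2.21 ± 0.67 against control (adjusted p = 0.233) and -3.01 ± 0.70 against C. albicans (adjusted p = 0.0673). Without control 1 the value against control was -1.54. Lmod1 (leiomodin, an actin nucleator) stood at 116, 107 and 75.5 CPM in the controls, 74.8, 209 and 134 CPM with C. albicans, and 53.5 and 68.0 CPM with C. tropicalis. Its log2 fold change between the species was -1.20 ± 0.38 (adjusted p = 0.111). Smtn (smoothelin) and Cald1 (caldesmon) lay between, at -1.79 ± 0.44 and -2.13 ± 0.61 between the species.

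Tagln, which encodes transgelin (SM22), is usually among the most abundant smooth muscle transcripts, but held only 816 counts over the 8 libraries and 2.89 CPM per kilobase. It stood at 6.51, 5.36 and 3.82 CPM in the controls, 5.56, 11.4 and 7.80 CPM with C. albicans, and 1.94 and 3.51 CPM with C. tropicalis, the same pattern as its neighbours in role. In GENCODE M21, 1241 of its 1988 exon bases also belong to exons of the antisense gene Gm48529, which held 465 counts, and 108 to Pcsk7 on the opposite strand. The kit used loses strand information, so reads from either gene over these bases look alike, and the level of Tagln is uncertain. Whether this overlap accounts for its low count was not tested. Of all its 50-base stretches, 58.3% occur in another gene, against 9.46% for Smtn (with Gm11946) and at most 5.16% for any other member. The stretches of Actg2 and Acta2 shared with other genes were 0% and 0.326%.

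In kinase and phosphatase control, Mylk (myosin light chain kinase) stood at 829, 544 and 329 CPM in the controls, 490, 1372 and 832 CPM with C. albicans, and 258 and 306 CPM with C. tropicalis. It followed the mean of the 31 genes closely, with log2 fold changes of 0.66 ± 0.40, -1.01 ± 0.46 and -1.67 ± 0.47 in the 3 comparisons (adjusted p = 0.433, 0.333 and 0.0871). Ppp1r14a (CPI-17, the inhibitor of myosin phosphatase that raises calcium sensitivity, ENSMUSG00000037166, chromosome 7, 29289308 to 29293801, plus strand) behaved otherwise. It stood at 84.3, 107 and 83.6 CPM in the controls, 68.9, 91.7 and 91.2 CPM with C. albicans, and 39.5 and 52.8 CPM with C. tropicalis. C. albicans 2 and 3 were almost equal and lay among the controls, and C. albicans 1 lay below them. It was the only member with a log2 fold change below 0 for C. albicans against control, -0.13 ± 0.17 (adjusted p = 0.728), and the value was 0.032 without C. albicans 1 and 0.025 without control 2. Against control its C. tropicalis value was -0.99 ± 0.20, the smallest p of the members (adjusted p = 0.140). Hspb6 (Hsp20, a small heat shock protein linked to relaxation) stood at 37.4, 35.1 and 29.7 CPM in the controls, 32.4, 115 and 58.8 CPM with C. albicans, and 20.96 and 20.5 CPM with C. tropicalis. Its controls lay close together, and its log2 fold change was 1.02 ± 0.37 for C. albicans against control (adjusted p = 0.271), or 0.42 without C. albicans 2. Ppp1r12b, a targeting subunit of myosin phosphatase, had values of 0.78 ± 0.37, -0.89 ± 0.42 and -1.67 ± 0.43.

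**Figure D3:**
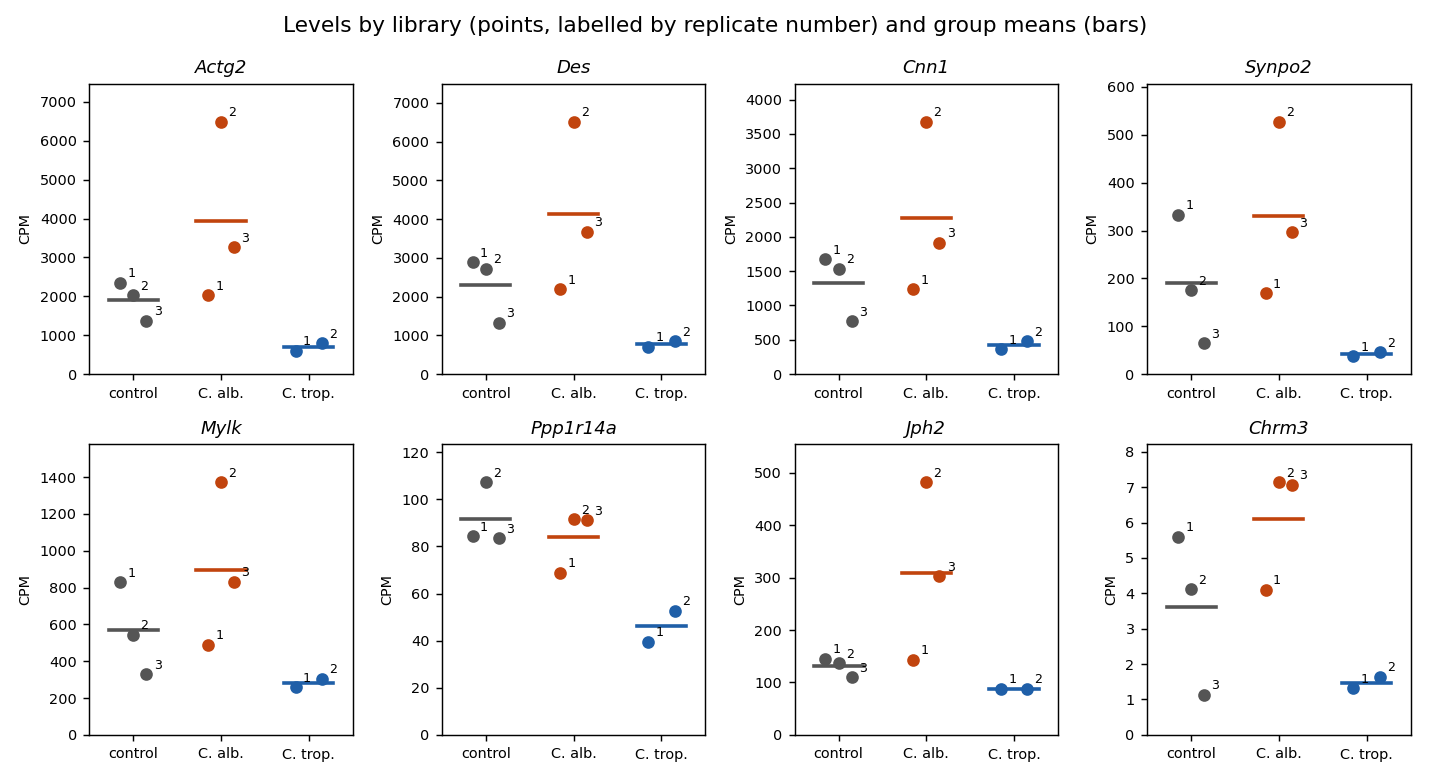
Each panel shows 1 gene, with CPM on a linear axis from 0, points for libraries labelled by replicate number and bars for the group means of control (n = 3), C. albicans (n = 3) and C. tropicalis (n = 2). C. albicans 2 is the highest point for 7 of the 8 genes shown, while for Ppp1r14a it lies among the controls at 91.7 CPM.

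Among the intermediate filament and attachment genes, Des (desmin, the muscle intermediate filament protein) held the most counts of all members. It stood at 2893, 2718 and 1325 CPM in the controls, 2184, 6517 and 3674 CPM with C. albicans, and 710 and 848 CPM with C. tropicalis. Both C. tropicalis libraries lay below control 3. The log2 fold change was -1.57 ± 0.47 against control (adjusted p = 0.232) and -2.41 ± 0.49 against C. albicans (adjusted p = 0.0646). Itga8 (integrin alpha 8, a cell surface receptor for matrix) had the smallest log2 fold change above 0 for C. albicans against control, 0.05 ± 0.32 (adjusted p = 0.948), a sign that turned without C. albicans 2 (-0.13), without control 3 (-0.18) and with upper-quartile scaling (-0.00082). Its levels were 6.51, 5.18 and 3.28 CPM in the controls, 3.43, 6.40 and 5.67 CPM with C. albicans, and 2.28 and 2.49 CPM with C. tropicalis. Pdlim7 (an actin-associated PDZ and LIM protein, also made outside muscle) stood at 161, 132 and 124 CPM in the controls, 143, 384 and 244 CPM with C. albicans, and 72.0 and 87.0 CPM with C. tropicalis. Its controls were close together, as for Hspb6, and its log2 fold change was 0.89 ± 0.31 for C. albicans against control (adjusted p = 0.262). The other 6, Synm (synemin), Flna (filamin A), Pgm5 (aciculin), Csrp1, Ldb3 and Pdlim3, had log2 fold changes of 0.37 to 0.78 for C. albicans and of -1.45 to -0.64 for C. tropicalis against control.

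Myocd, which encodes myocardin, was the least abundant member, with 340 counts in all, 9 in its lowest library and 0.372 CPM per kilobase. It stood at 2.97, 1.43 and 0.484 CPM in the controls, 1.97, 6.04 and 4.02 CPM with C. albicans, and 1.54 and 0.680 CPM with C. tropicalis. Control 3 was the lowest of all libraries, so the C. tropicalis libraries lay within the range of the controls. Its log2 fold changes had wide errors, 1.30 ± 0.63 for C. albicans and -0.55 ± 0.75 for C. tropicalis against control (adjusted p = 0.352 and 0.750), and without control 1 they were 2.07 and 0.23. Without C. tropicalis 1 the second was -1.24.

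Among the receptors, Chrm2 and Chrm3 encode the M2 and M3 muscarinic receptors, through which acetylcholine contracts the gut. Chrm3 stood at 5.60, 4.11 and 1.13 CPM in the controls, 4.10, 7.14 and 7.07 CPM with C. albicans, and 1.31 and 1.64 CPM with C. tropicalis. Control 3 lay below both C. tropicalis libraries, and the log2 fold change between the species was -2.04 ± 0.61 (adjusted p = 0.0982). Chrm2 stood at 24.4, 20.6 and 9.84 CPM in the controls, 18.3, 22.2 and 24.5 CPM with C. albicans, and 8.74 and 9.63 CPM with C. tropicalis. C. albicans 2 lay among the controls, and the value between the species was -1.24 ± 0.34 (adjusted p = 0.0848). Kcnmb1, the beta 1 subunit of the large-conductance calcium-activated potassium channel, stood at 28.2, 26.8 and 17.9 CPM in the controls, 21.3, 41.3 and 28.4 CPM with C. albicans, and 10.4 and 10.8 CPM with C. tropicalis. Its 2 C. tropicalis libraries were almost equal, and its log2 fold change was -1.20 ± 0.30 against control (adjusted p = 0.184) and -1.52 ± 0.30 against C. albicans (adjusted p = 0.0646).

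Jph2 (junctophilin 2, which ties the calcium store to the surface membrane, ENSMUSG00000017817, chromosome 2, 163336242 to 163397993, minus strand) had the smallest p of the members for C. albicans against control. It stood at 145, 137 and 110 CPM in the controls, 143, 482 and 303 CPM with C. albicans, and 88.2 and 88.0 CPM with C. tropicalis. C. albicans 1 lay between control 1 and control 2 and the other 2 C. albicans libraries lay above all controls. The log2 fold change was 1.25 ± 0.36 (adjusted p = 0.229) and between the species -1.81 ± 0.42 (adjusted p = 0.0673). Casq2 (calsequestrin 2, a calcium buffer of the store, best known from heart) was the member least like the rest. It stood at 4.28, 3.81 and 4.41 CPM in the controls, 3.82, 8.56 and 2.38 CPM with C. albicans, and 3.65 and 3.46 CPM with C. tropicalis. C. albicans 2 was the highest and C. albicans 3 the lowest of all 8, and its values were 0.24 ± 0.41, -0.23 ± 0.47 and -0.47 ± 0.47 in the 3 comparisons (adjusted p = 0.790, 0.836 and 0.596). Without C. albicans 2, the value against control was -0.42 and that between the species 0.19.

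Ratios were also taken between pairs of members. The ratio of Actg2 to Acta2, both per kilobase of exon, was 1.63, 1.35 and 1.17 in the controls, 1.68, 2.25 and 1.88 with C. albicans, and 0.890 and 0.873 with C. tropicalis. The 3 groups did not overlap in this ratio, although control 1 and C. albicans 1 lay close together. With Myh11 in place of Acta2 the groups overlapped, at 4.27, 6.67 and 7.26 in the controls, 5.84, 6.65 and 5.497 with C. albicans, and 4.16 and 4.36 with C. tropicalis. The ratio of Synpo2 to Smtn was 0.229, 0.190 and 0.0829 in the controls, 0.180, 0.193 and 0.173 with C. albicans, and 0.0813 and 0.0776 with C. tropicalis. Here control 3 lay beside the C. tropicalis libraries. The ratio of Chrm2 to Chrm3 was 4.50, 5.17 and 9.002 in the controls, 4.61, 3.21 and 3.57 with C. albicans, and 6.87 and 6.06 with C. tropicalis, again with control 3 nearer to C. tropicalis. Tpm1 to Tpm2, by contrast, ran only from 0.609 to 0.836 over the 8 libraries. Hspb6 to Ppp1r14a, Jph2 to Casq2 and Myl9 to Mylk were also taken, and in each of them some of the groups overlapped. All these pairs were chosen with the values in view and are given without a test. How often the 3 groups separate over all pairs of genes was not counted.

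**Figure D4:**
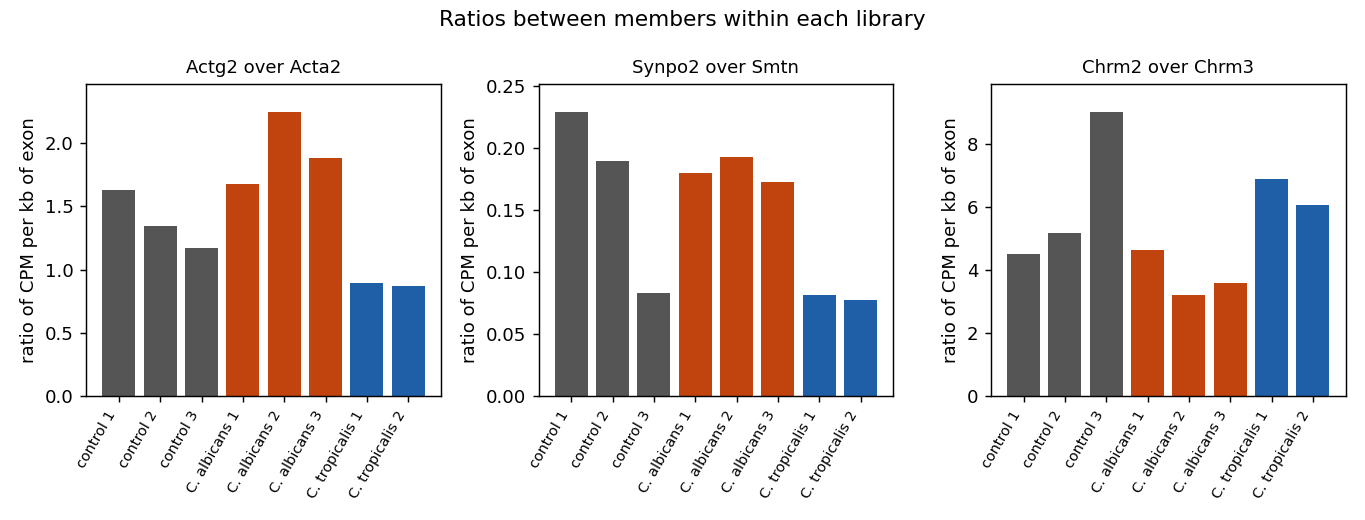
Bars are ratios of CPM per kilobase of exon between 2 genes in each library, on linear axes from 0, for Actg2 over Acta2, Synpo2 over Smtn and Chrm2 over Chrm3, coloured by group. Actg2 exceeds Acta2 in the 6 control and C. albicans libraries and lies below it, at 0.890 and 0.873, in the 2 C. tropicalis libraries.

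Markers of several other cells that share the gut wall varied alongside the smooth muscle genes, and those of others did not. The 8 vascular mural cell genes (such as Rgs5) summed to 188 to 399 CPM in the controls and 240 to 643 CPM with C. albicans. With C. tropicalis they summed to 152 and 146 CPM. Of the 7 tested, 7 lay below 0 in C. tropicalis against C. albicans (46.3% of all genes). Against control, 6 lay above 0 with C. albicans (48.2% of all genes) and 5 below 0 with C. tropicalis (52.1%). Rgs5 alone held 369 CPM of the sum in C. albicans 2. Pdgfrb stood at 38.8, 39.2 and 41.5 CPM in the controls, 32.7, 38.8 and 32.6 CPM with C. albicans, and 36.2 and 25.2 CPM with C. tropicalis. Notch3 stood at 15.5, 14.9 and 23.9 CPM, 28.9, 33.1 and 31.3 CPM, and 19.2 and 17.5 CPM in the same order. The 11 enteric neuron genes summed to 108 to 168, 141 to 291, and 52.4 and 88.3 CPM, with 11 of 11 above 0 for C. albicans and 11 of 11 below 0 for C. tropicalis against control. The 3 genes of PDGFRA-positive muscle interstitial cells summed to 18.7 to 35.2, 24.3 to 41.9, and 14.0 and 17.7 CPM. Among the markers of interstitial cells of Cajal, Kit stood at 98.6, 56.9 and 40.1 CPM in the controls, 58.0, 96.5 and 78.2 CPM with C. albicans, and 24.6 and 28.6 CPM with C. tropicalis, while the summed list of 5 genes ran the other way, from 488 CPM in C. albicans 2 to 1085 CPM in C. tropicalis 1, with Thbs4 alone at 876 CPM in the latter. Enteric glia markers, mostly Erbb3, ran from 172 CPM in C. tropicalis 2 to 435 CPM in control 1 when summed. All 6 lay below 0 with C. tropicalis against control and against C. albicans, and 5 lay above 0 with C. albicans against control. Mesothelial cells coat the outside of the muscle, and their markers summed to 2.57 and 3.68 CPM with C. tropicalis against 5.23 to 16.2 CPM in the other 6. Skeletal muscle markers summed to 14.2 to 81.7 CPM, highest in C. albicans 2, with Acta1 and Ckm holding most of it and Myh4 at 0 in all libraries. Cardiac muscle markers summed to 6.51 to 24.0 CPM, highest in C. tropicalis 2, with Myl2 at 0 in all libraries. Squamous epithelium markers summed to 5.25 and 3.80 CPM with C. tropicalis against 1.19 to 2.26 CPM in the other 6. Krt14 alone held 4.74 and 3.57 CPM of the C. tropicalis sums, and only 1 of the 5 genes was tested. Krt5 stood at 0 and 0.057 CPM with C. tropicalis, against 0.514 CPM in control 1, and Trp63 at 0 in both C. tropicalis libraries. Krt13 and Krt4 reached at most 0.400 and 0.225 CPM in any library. Adipocyte markers were lowest in C. tropicalis 1 (11.5 CPM) and highest in control 3 (230 CPM), and B cell markers ran from 10.3 CPM in C. albicans 2 to 222 CPM in control 3. Summed over each list, fibroblast markers ranged 2.32-fold, endothelium 1.70-fold and colon epithelium 1.41-fold over the libraries. The fibroblast and endothelium sums were also highest in C. albicans 2 and lowest in C. tropicalis 2. Car1, within the colon epithelium list, was highest in the C. tropicalis libraries, where the smooth muscle genes were mostly lowest. The part of any of these cells in the smooth muscle differences was not tested.

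**Figure D5:**
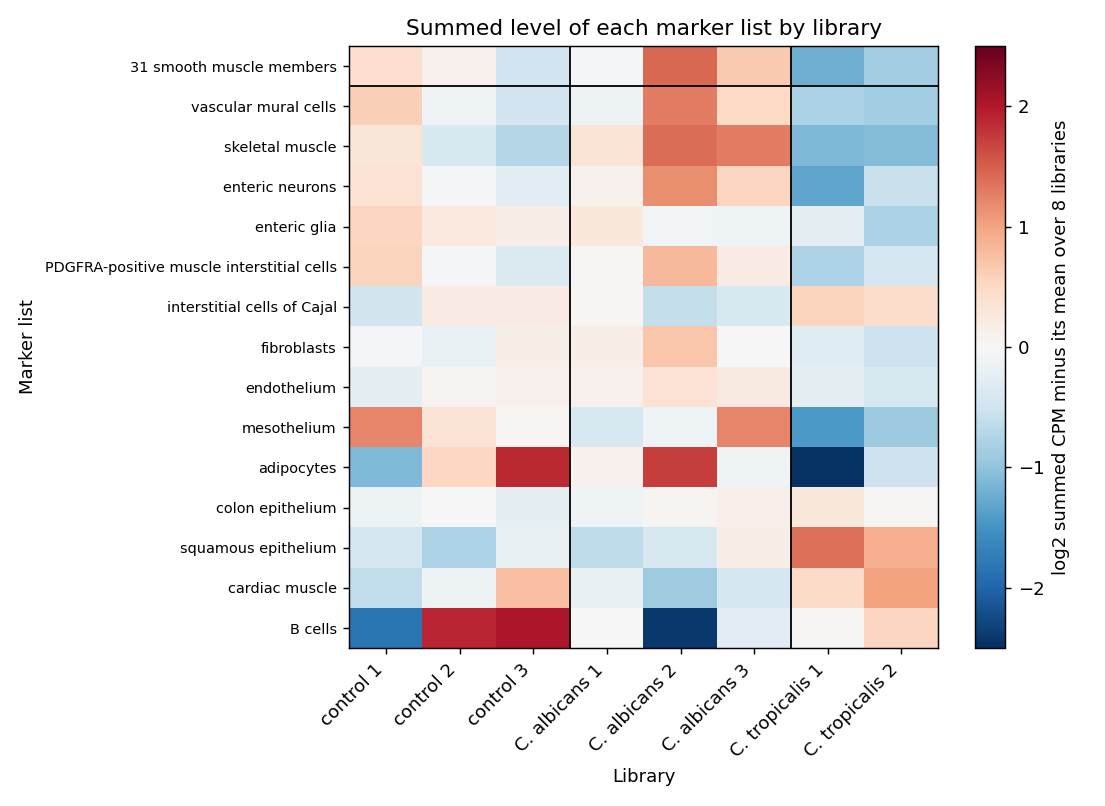
Rows are the summed CPM of the 31 smooth muscle genes and of 14 marker lists, columns are libraries, and colour is log2 of the sum minus its mean over the 8 libraries. The smooth muscle row is highest in C. albicans 2 and lowest in a C. tropicalis library. So are those for vascular mural cells, skeletal muscle, enteric neurons, PDGFRA-positive muscle interstitial cells, fibroblasts and endothelium. The B cell row is lowest in C. albicans 2.

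A list of 65 other genes of smooth muscle function, 63 of them tested, included genes of calcium entry, relaxation by cyclic nucleotides, filaments and attachment, SRF cofactors and receptors. None passed in any comparison in edgeR or limma-voom. DESeq2 called 5 higher for C. albicans against control (Srf, Palld, Tns1, Dmpk and Actb), where it called 2.43% of all genes higher. For C. tropicalis against control it called 4 lower (Gucy1a1, Gucy1b1, Itga5 and Cnn2; 1.35% of all genes) and 1 higher (Tpm4; 1.11%), and between the species 27 lower (8.56%) and 2 higher (Tpm4 and Ptger3; 2.24%). For C. albicans against control 50 of 63 lay above 0 (48.2% of all genes), with a median of 0.31. At an unadjusted p under 0.05 in edgeR, 18 were higher (9.13% of all genes) and 0 lower (6.31%). The smallest p values belonged to Srf, whose protein binds the CArG box (156, 163 and 166 CPM in the controls, 220, 366 and 300 CPM with C. albicans, log2 0.87 ± 0.19, adjusted p = 0.150), Ilk and Palld (palladin). Ilk, the integrin-linked kinase, stood under 1 CPM in every library, so its value of 2.08 ± 0.50 rests on few counts. Srf lay above all controls in each C. albicans library, while C. tropicalis 1, at 194 CPM, lay above the controls and C. tropicalis 2, at 156 CPM, among them. Downwards, Fhl1 (-0.37 ± 0.18), Ptger3 (-0.49 ± 0.24) and Mrtfb (-0.30 ± 0.17) had the smallest p.

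For C. tropicalis against control 45 of the 63 lay below 0 (52.1% of all genes), with a median of -0.44. At an unadjusted p under 0.05 in edgeR, 12 were lower (8.05% of all genes) and 2 higher (7.33%). Lowest in p were Gucy1a1 and Gucy1b1, the subunits of the nitric oxide receptor guanylate cyclase that relaxes smooth muscle (-1.34 ± 0.30 and -1.18 ± 0.33, adjusted p = 0.164 and 0.216), and Cnn2 (-0.83 ± 0.23). All 6 genes of cyclic nucleotide relaxation lay below 0, with a median of -0.99. Tpm4, a tropomyosin mainly of non-muscle cells, went the other way, at 80.9, 89.3 and 90.4 CPM in the controls, 83.2, 88.2 and 77.1 CPM with C. albicans, and 128 and 132 CPM with C. tropicalis (0.58 ± 0.12, adjusted p = 0.159). Ptger3 (0.67 ± 0.26), a prostaglandin E2 receptor, and Myh9 (0.39 ± 0.20), a non-muscle myosin, were the next in that direction. Between the species 51 of 63 lay below 0 (46.3% of all genes), with a median of -0.77. At an unadjusted p under 0.05 in edgeR, 35 were lower (14.4% of all genes) and 3 higher (8.83%). The lower genes were led by Itga5 (-1.56 ± 0.27), Gucy1a1 (-1.54 ± 0.30) and Tgfb1i1 (-1.36 ± 0.28). The higher ones were Tpm4 (0.65 ± 0.12), Ptger3 (1.16 ± 0.26) and Fhl1 (0.49 ± 0.20).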

How the data were processed

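One deposited table was used, in which the authors give raw read counts, not normalized, for 52636 Ensembl identifiers in 8 colon libraries. TopHat2 2.0.12, HTSeq 6.1, DESeq 1.18.0 and the build mm10 are named in the submitters' processing notes. For the annotation release and strand setting, nothing is given in the sources used here. Identifiers were named from GENCODE M21, where 147 with 0.00317% of counts were not found. The main test was the quasi-likelihood F-test of edgeR 4.0.16, run in R 4.3.3 (TMM, filterByExpr on the 3 groups, 1 fit of all 8 libraries), with Benjamini-Hochberg adjustment over 16107 genes in each comparison and a threshold of 0.05. The fit had 5 residual degrees of freedom and a biological coefficient of variation of 0.243. The 3 counts that an observed 0 allows equal 0.152 to 0.185 CPM, for counting error only. CPM per kilobase divides by the union of the exons of a gene. The pipeline was also run on simulated counts with known changes. Each gene was drawn independently there, so that run does not cover genes that move together across libraries, as the members do.

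The members, lists and tests were chosen with earlier results of these data known, so no list was given a set test. Per role, the members with the highest mean CPM and the smallest and largest range over libraries are given library by library, and of the 65 other genes the 3 with the smallest p in each direction. Myh11, Tagln, Kcnmb1, Casq2 and Pdlim7 were added after their values were seen. Alternatives were DESeq2 1.42.0, limma-voom 3.58.1, other size factors, other filters, a replicate block, a fit without the group not compared, a smooth muscle score as covariate, and each library left out. The values of 1 group among the 65 other genes are not reported here. No 2 libraries of a group differed by as little as sampling noise. Promoter sequences are from RefSeq, and figures were drawn with matplotlib 3.10.9.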

Additional observations from a re-analysis of the deposited data

How the results depend on the processing

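The direction of the member medians was the same under every scaling, filter, tool and left-out library, and turned once a smooth muscle score entered the fit, to -0.10 for C. albicans against control, 0.017 for C. tropicalis against control and 0.060 between the species. The sign of single members also turned in that fit, but none of the values below was distinguishable from 0 (edgeR adjusted p of 0.491 to 0.985). For C. albicans against control the log2 values were -0.082 (Acta2), -0.11 (Cnn1), -0.28 (Lmod1), -0.23 (Synpo2), -0.21 (Mylk), -0.058 (Des), -0.51 (Itga8), -0.12 (Chrm2), -0.018 (Myh11), -0.19 (Kcnmb1) and -0.21 (Casq2). For C. tropicalis against control they were 0.17 (Lmod1), 0.20 (Mylk), 0.19 (Hspb6), 1.23 (Myocd), 0.33 (Jph2), 0.25 (Myh11) and 0.25 (Casq2), and between the species 0.45 (Lmod1), 0.41 (Mylk), 0.060 (Hspb6), 0.25 (Itga8), 0.98 (Myocd), 0.27 (Myh11) and 0.46 (Casq2). With upper-quartile factors Itga8 for C. albicans against control was -0.00082. The score comes from genes that follow the members, so the fit compares groups at an equal score, which is an extrapolation for C. tropicalis.

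Counts of members called moved from 0. DESeq2 called 1 higher for C. albicans against control, 5 lower for C. tropicalis against control and 28 lower between the species. Between the species, 27 were called with no filter, 14 with only the 2 groups and 26 at an adjusted p under 0.1. Leaving out 1 library gave 0 to 3, 0 to 1 and 0 to 26 in the 3 comparisons. The cause of these moves was not tested. Leaving out 1 library also gave, for C. albicans against control, -0.20 to 0.032 for Ppp1r14a, -0.18 to 0.31 for Itga8, -0.053 to 0.51 for Chrm2 and -0.42 to 0.60 for Casq2, for C. tropicalis against control -1.24 to 0.23 for Myocd, and between the species -0.83 to 0.19 for Casq2. Where 1 C. tropicalis library was left, it was assumed to vary like the other groups. Without the 6 members abundant in other cells the share of counts was 1.68% in control 1, 0.448% in C. tropicalis 1 and 0.593% in C. tropicalis 2. With the replicate number as a block 0 members were called, with medians of 0.69, -1.11 and -1.72. Deviations from the group means correlated at -0.39 to 0.16 across genes between same-numbered libraries. Deviations within so small a group sum to 0, so these correlations cannot decide whether the numbers pair libraries. Depth was ample for most members, but Myocd, Chrm3, Itga8, Casq2 and Tagln held under 1000 counts in all.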
